A study of Homo sapiens with 2 samples.

Results

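Interferon-stimulated genes and the nucleic acid sensors that lie upstream of them were compared between 2 RNA-seq libraries of H460, a line of human lung cancer cells of the large-cell type. One set of cells, labelled control, carried the pSin-puro vector, and the other overexpressed PKP2 delivered by the same vector. Both cultures were at passage 5 and each gave 1 library, and the labels do not say whether the cells were a pool or a clone. The genes were a list of 46 symbols, found in the count files by Ensembl gene ID. Of these, 45 had a row among the 22965 gene rows of the files, and 43 had a mean of at least 10 counts over the libraries, as did 15991 genes in all. XAF1, an inhibitor of the apoptosis inhibitor XIAP, had no row and is not analysed here. MX2 and BST2 had too few counts to pass.

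Cells sense foreign or misplaced nucleic acid with receptors such as RIG-I and MDA5, which bind RNA and signal through MAVS, and cGAS, which binds DNA and signals through STING. Both routes lead through the kinase TBK1 to the transcription factor IRF3 and so to type I interferon. Secreted interferon binds receptors on the cell surface, whose Janus kinases JAK1 and TYK2 activate transcription factors such as STAT2 with IRF9, which bind interferon-stimulated response elements (ISREs) and induce antiviral genes. IRF3 can also induce some of those genes directly, and most cells keep low basal levels of them.

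Library depth was 23513304 counts for the vector and 20319137 for the PKP2 cells, with 22378 and 21830 genes above 0. PKP2 (ENSG00000057294) itself had 181 and 1330 counts, 8.66-fold higher in the library labelled as overexpressing it. Of the epithelial markers KRT8, KRT18, KRT19, EPCAM and CDH1, 4 of 5 had a row, with a summed level of 1223 CPM with the vector and 1233 with PKP2, CPM being a count divided by the scaled size of its library. KRT19 was higher in the PKP2 library (ratio 1.08), and KRT8 (-0.58) and KRT18 (-0.41) were lower. CDH1 had no row, and EPCAM had only 28 and 16 counts. Leukocyte markers summed to 3.96 and 1.14 CPM, nearly all from CD14, while PTPRC and CD3E had no row. Markers of plasmacytoid dendritic cells, which make much interferon, summed to 0.042 and 0.050 CPM. Fibroblast markers summed to 10.2 and 12.7 CPM and endothelial markers to 0.084 and 0. The fibroblast sum joins COL1A1, which was lower (ratio -1.22), and PDGFRB, which was higher (1.14). The part of such cells in the results was not tested. In such bulk libraries, fewer cells with a transcript and less of it per cell cannot be told apart.

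Ratios are CPM of the PKP2 library over CPM of the vector library on the log2 scale, so that 1 is 2-fold higher and -1 is 2-fold lower. With 1 library per group there is no replicate check and no p-value. The 95% interval after each ratio covers counting error only, with every read taken as independent. Reads that carry no molecular identifier can be copies of 1 molecule, so the interval may be too narrow even for that error. It does not cover differences between cultures. Of 43 genes in the list, 3 were at least 2-fold lower in the PKP2 library, or 6.98%, beside 4.61% of all 15991 genes. These were OASL, IFIT2 and ISG15. None was at least 2-fold higher, beside 2.47% of all genes. The median ratio was 0.10, with 24 genes above 0 and 19 below, and that of all genes was -0.03. The share below 0 was 44.2%, beside 52.7% of all genes. Counting intervals lay wholly above 0 for 14 genes and wholly below for 14, or 32.6% each, beside 25.9% and 28.8% of all genes. These shares lay near those of all genes.

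**Figure D1:**
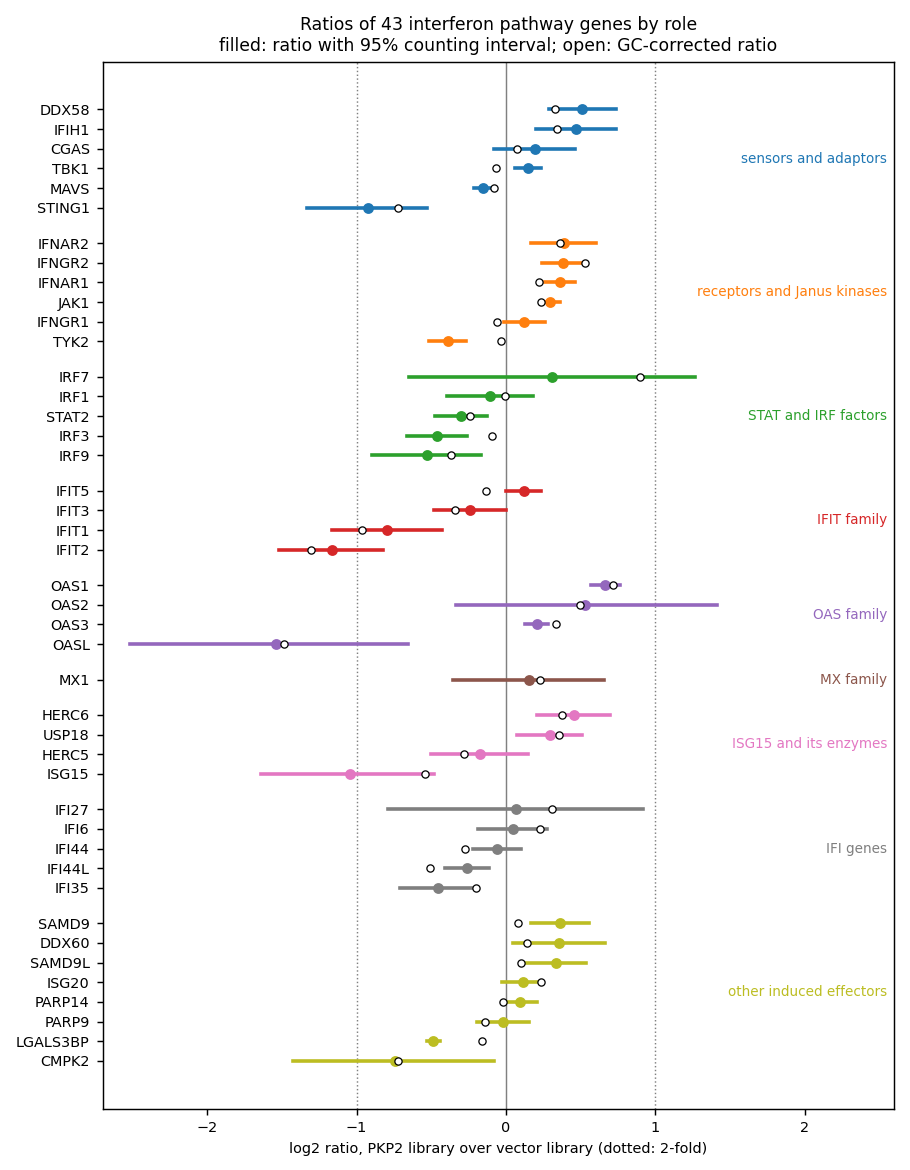
Log2 ratios (x axis) of the 43 genes that passed the count minimum, grouped by role; filled points are ratios with 95% counting intervals, open points are ratios corrected for transcript GC content, and dotted lines mark 2-fold. OASL, IFIT2 and ISG15 lie beyond the lower dotted line, and OAS1 is the highest at 0.67.

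Depth bears on how these calls are read. Among 7 members with a mean of 10 to under 100 counts, 2 were at least 2-fold lower (OASL and ISG15), where 12.1% of all genes of that depth were. In the range from 100 to under 1000 counts it was 1 of 26 (IFIT2), beside 2.47% of all genes. Of the 10 members with a mean of at least 1000 counts none was 2-fold lower, beside 0.846%. None was 2-fold higher at any depth, beside 5.37%, 1.63% and 1.03% of all genes in these 3 ranges. The interval of no member lay wholly beyond 2-fold.

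**Figure D2:**
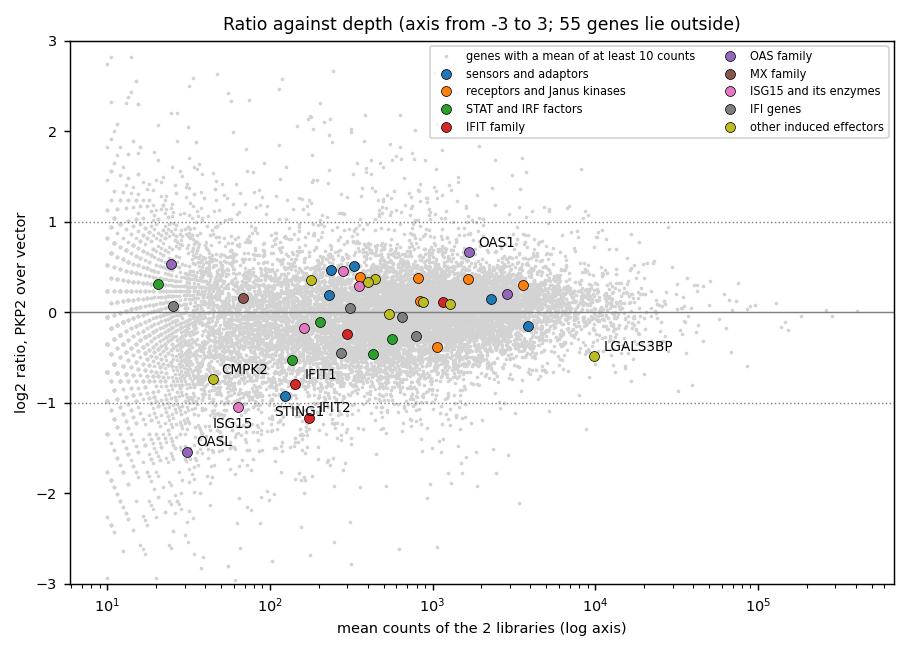
Log2 ratio (y axis) against the mean counts of the libraries (x axis, log scale) for genes past the count minimum that have a transcript sequence (grey; 55 beyond 3 on either side are not drawn) and for the members (coloured by role). OASL and ISG15 lie in the sparse part of the plot where the grey points spread widely, and IFIT2 lies at a mean of 175 counts.

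Transcript GC content also moved with the ratio. Across 11610 well-counted genes of the libraries Spearman's rho between GC content and ratio was -0.61, and across the 43 members it was -0.33. Both are descriptions over genes, which share their libraries and are not replicates. The median ratio was 0.25 in the 10% of these genes with the least GC and -0.47 in the 10% with the most. A GC-corrected ratio, from which the smoothed trend over all well-counted genes was subtracted, is therefore given beside the main ratios. Members with under 45% GC numbered 18 and had a median ratio of 0.12, where all such genes had 0.18. The 11 members with at least 55% GC had a median of -0.45, where all such genes had -0.34.

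**Figure D3:**
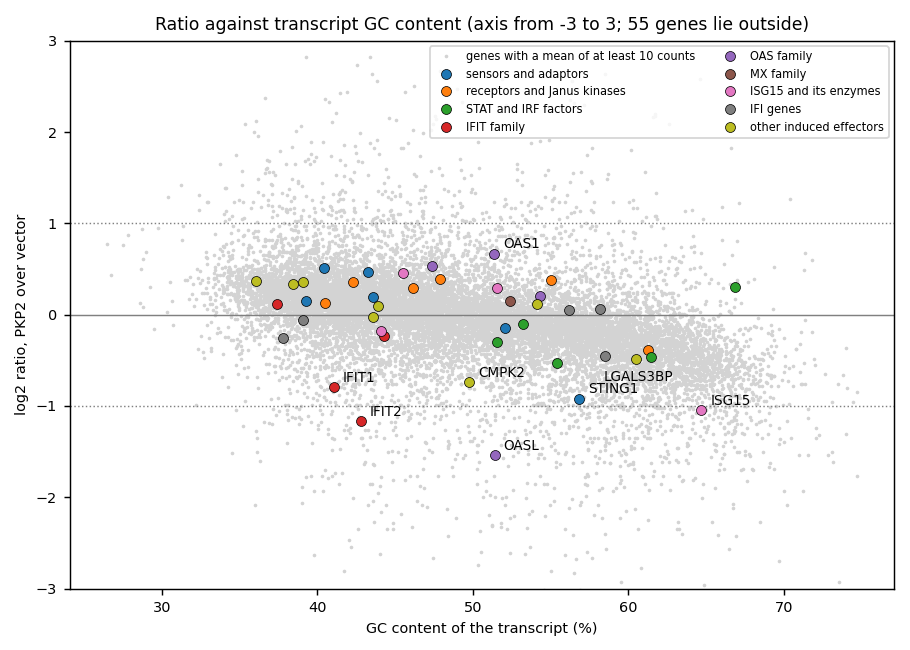
Log2 ratio (y axis) against GC content of the transcript in percent (x axis) for genes past the count minimum that have a transcript sequence (grey; 55 beyond 3 on either side are not drawn) and for the members (coloured by role). The grey cloud slopes downward. ISG15 lies in its GC-rich lower end, while IFIT1 and IFIT2 lie below the trend of the cloud, at a GC content of 41.1% and 42.8%.

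The sensors of RNA and DNA were expressed in both libraries, and the adaptor STING1 was the one that differed most. DDX58, the gene of RIG-I, which binds RNA with a 5′ triphosphate, had 299 counts with the vector and 362 with PKP2. Its CPM of 12.6 and 18.0 gave a ratio of 0.51 (interval 0.29 to 0.74), and 0.33 with the GC correction. IFIH1, the gene of MDA5, which binds long double-stranded RNA, had 218 and 256 counts, a ratio of 0.47 (0.20 to 0.74; 0.34 with the GC correction). Both RNA sensor genes were thus higher in the PKP2 library, by less than 2-fold, and the difference between their ratios was within counting error (-0.04, interval -0.40 to 0.31). CGAS, whose product makes the second messenger cGAMP on binding DNA, had 233 and 226 counts, a ratio of 0.19 with an interval that takes in 0 (-0.08 to 0.46). With the GC correction CGAS was at 0.07.

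STING1, the endoplasmic reticulum protein that binds cGAMP, had 172 and 77 counts, which is 7.25 and 3.82 CPM. It was 1.90-fold lower in the PKP2 library, a ratio of -0.92 (-1.33 to -0.53), and -0.72 after the GC correction. Against CGAS its ratio was lower by 1.12 (interval -1.61 to -0.63), so the sensor and the adaptor of the DNA route differed by more than counting error. MAVS, the mitochondrial adaptor of the RNA sensors, had 4375 and 3346 counts, a ratio of -0.15 (-0.22 to -0.08), and -0.08 with the GC correction. TBK1, the kinase that both adaptors activate, had 2361 and 2220 counts, a ratio of 0.15 (0.06 to 0.23) that turned to -0.07 with the GC correction. Of the 15 pairs among these 6 genes, 11 had ratios that differed by more than counting error, and 5 of those pairs held STING1. The share of such pairs over all genes was not worked out, neither for these pairs nor for those counted below. MAVS and TBK1 were 1 of the 11 pairs, although their GC-corrected ratios, at -0.08 and -0.07, were close.

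Of the 4 receptor genes, IFNAR1, IFNAR2 and IFNGR2 were higher in the PKP2 library beyond counting error and IFNGR1 was not, while JAK1 and TYK2 went apart. IFNAR1 and IFNAR2 encode the chains of the type I interferon receptor. IFNAR1 had 1575 and 1719 counts, a ratio of 0.36 (0.26 to 0.46), and IFNAR2 had 339 and 376, a ratio of 0.39 (0.17 to 0.60). For the type II (gamma) receptor, IFNGR2 had 778 and 861 counts, a ratio of 0.38 (0.24 to 0.52), and IFNGR1 had 868 and 803, a ratio of 0.12 (-0.02 to 0.26). IFNGR1 lay below IFNGR2 by 0.26 (0.06 to 0.46) and also differed beyond counting error from IFNAR1 and IFNAR2. The GC correction put IFNAR1 at 0.22, IFNAR2 at 0.36, IFNGR2 at 0.53 and IFNGR1 at -0.06. JAK1, the kinase shared by both receptors, had 3521 and 3671 counts, a ratio of 0.30 (0.23 to 0.36). TYK2, its partner on the type I receptor, had 1302 and 843 counts, a ratio of -0.39 (-0.52 to -0.26). The ratio of TYK2 was 0.69 below that of JAK1 (interval -0.83 to -0.54). The TYK2 transcript has 61.3% GC and that of JAK1 46.2%, and the GC-corrected ratios were -0.03 and 0.23. Of the 31-base stretches of IFNAR2, 80.0% also occur in other listed genes, and it overlaps one on the same strand that also overlaps IL10RB. Summed with that gene (54 and 46 counts) its ratio was 0.34.

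Of the transcription factors, IRF9, IRF3 and STAT2 were lower in the PKP2 library beyond counting error. IRF3, the factor that TBK1 phosphorylates, had 533 and 329 counts, or 22.5 and 16.3 CPM, a ratio of -0.46 (-0.66 to -0.26). STAT2 had 665 and 459 counts, a ratio of -0.30 (-0.47 to -0.12), and IRF9, its DNA-binding partner, had 173 and 102, a ratio of -0.53 (-0.89 to -0.16). IRF1, which responds chiefly to interferon gamma, had 227 and 179 counts, a ratio of -0.11 whose interval takes in 0. IRF7, the amplifier of interferon alpha genes, had only 20 and 21 counts. None of the 10 pairs of factors differed by more than counting error.

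The ratios of these factors are set here beside the GC correction and, for IRF3 and IRF9, beside overlapping genes. After the GC correction the ratio of IRF3 was -0.10, that of STAT2 -0.24 and that of IRF9 -0.37. IRF3 overlaps BCL2L12 on the opposite strand, and that gene had 579 and 307 counts, a ratio of -0.68. IRF9 overlaps another gene on the same strand over 48.4% of its exon bases, which had 170 and 96 counts and a ratio of -0.59. Summed over both, the IRF9 group was at -0.56 (-0.82 to -0.30). How reads were assigned between overlapping genes was not tested.

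Induced genes made up the rest of the list, with 26 that passed the count minimum. Their median ratio was 0.06 (-0.08 with the GC correction), 14 lay above 0 and 12 below, and the 3 genes at least 2-fold lower were all among them. Summed over these 26 genes the counts were 25827 and 20089, a ratio of -0.13 (-0.15 to -0.10). LGALS3BP, a secreted glycoprotein that binds galectins, supplied 12268 and 7435 of those counts. Without it the sum went from 571 to 628 CPM, a ratio of 0.14 (0.10 to 0.17), so this 1 gene set the direction of the sum.

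The IFIT genes encode tetratricopeptide repeat proteins that bind viral RNA and block its translation, and 4 of them lie side by side on chromosome 10. IFIT2 had 254 counts with the vector and 96 with PKP2, or 10.7 and 4.77 CPM. It was 2.25-fold lower (interval 1.77 to 2.87), a ratio of -1.17 (-1.52 to -0.82). IFIT1, which recognises RNA caps that lack a methyl group, had 192 and 94 counts, a ratio of -0.79 (-1.17 to -0.43). IFIT3, which binds IFIT1 and stabilises it, had 346 and 249 counts, a ratio of -0.24 whose interval just reached 0. IFIT5, which binds RNA with a 5′ triphosphate, had 1213 and 1117 counts, a ratio of 0.12 with an interval that also reached 0. The family thus ran from 2-fold lower to level.

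These differences within the IFIT locus do not depend on how the libraries are scaled, since all 4 genes were counted in the same libraries. Of the 6 pairs, 5 differed by more than counting error, and IFIT1 and IFIT2 did not (difference 0.37, interval -0.14 to 0.89). The ratio of IFIT5 was above that of IFIT2 by 1.28 (0.92 to 1.66) and above that of IFIT1 by 0.91 (0.53 to 1.30). All 4 transcripts are poor in GC, at 37.4% to 44.3%, so the GC correction lowered every one of them. It put IFIT2 at -1.30, IFIT1 at -0.97, IFIT3 at -0.34 and IFIT5 at -0.14. IFIT2 overlaps a gene without an approved symbol on the same strand over 8.68% of its exon bases, and this gene had 40 and 1 counts. Summed with it, IFIT2 was at -1.36 (-1.71 to -1.03). It also meets LIPA on the opposite strand, a gene with far more counts, and the sum of all 3 was 3522 and 3692 counts, a ratio of 0.30. The part of the overlap in the IFIT2 count was not tested.

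Promoters of the induced genes were read for the ISRE letters, the element through which STAT2 and IRF9 induce them. The stretches are from RefSeq on build GRCh38.p14, which is not the build named for the counts, and each holds the 150 bases before a transcript start on the gene's strand, 5′ to 3′. Capitals mark each match to the letters searched, which are 2 copies of GAAA with any 2 bases between them or, on the other strand, 2 copies of TTTC spaced alike. Where a gene has several starts, the last one along the gene was taken. They are shown for pairs that lie in 1 locus and differ in ratio (IFIT1, IFIT3 and IFIT5; HERC5 and HERC6; OAS1 and OAS3) and for ISG15.
IFIT1: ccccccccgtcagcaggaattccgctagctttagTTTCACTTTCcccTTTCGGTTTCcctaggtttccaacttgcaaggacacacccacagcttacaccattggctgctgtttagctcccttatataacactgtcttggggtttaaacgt
IFIT3: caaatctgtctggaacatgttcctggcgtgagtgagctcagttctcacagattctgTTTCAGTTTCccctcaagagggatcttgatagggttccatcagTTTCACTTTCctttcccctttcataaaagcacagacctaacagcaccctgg
IFIT5: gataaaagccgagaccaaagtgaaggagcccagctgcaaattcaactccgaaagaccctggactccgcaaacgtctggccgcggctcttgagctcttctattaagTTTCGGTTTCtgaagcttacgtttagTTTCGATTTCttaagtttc
ISG15: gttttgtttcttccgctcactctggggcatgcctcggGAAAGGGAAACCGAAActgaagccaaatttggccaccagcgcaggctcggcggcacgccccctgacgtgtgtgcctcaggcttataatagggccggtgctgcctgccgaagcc
HERC5: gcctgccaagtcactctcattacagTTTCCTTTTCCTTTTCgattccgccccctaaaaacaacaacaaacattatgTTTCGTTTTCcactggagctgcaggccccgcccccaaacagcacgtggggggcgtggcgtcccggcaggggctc
HERC6: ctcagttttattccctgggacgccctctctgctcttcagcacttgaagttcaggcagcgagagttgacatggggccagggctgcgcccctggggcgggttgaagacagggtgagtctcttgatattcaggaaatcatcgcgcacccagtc
OAS1: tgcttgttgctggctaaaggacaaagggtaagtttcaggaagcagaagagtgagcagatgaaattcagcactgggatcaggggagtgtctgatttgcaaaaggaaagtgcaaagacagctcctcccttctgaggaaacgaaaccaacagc
OAS3: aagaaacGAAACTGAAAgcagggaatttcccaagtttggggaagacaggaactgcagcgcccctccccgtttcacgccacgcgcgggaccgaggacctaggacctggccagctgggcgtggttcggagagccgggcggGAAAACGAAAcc

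The stretches lie on chromosome 10 for IFIT1 (chr10:89392473-89392622), IFIT3 (chr10:89332379-89332528) and IFIT5 (chr10:89414418-89414567), on chromosome 1 for ISG15 (chr1:1013347-1013496), on chromosome 4 for HERC5 (chr4:88456969-88457118) and HERC6 (chr4:88378702-88378851), and on chromosome 12 for OAS1 (chr12:112906812-112906961) and OAS3 (chr12:112938324-112938473), all on the plus strand. Counted from the start, the matches of IFIT1 begin at -116 and -103, those of IFIT3 at -94 and -51, and those of IFIT5 at -45, -19 and -4, the last of which crosses the start, runs past the printed stretch and is not in capitals. ISG15 has a pair that overlap, at -113 and -107, and OAS3 has matches at -143 and -12. HERC5 has 3 matches, at -125, -119 and -74, of which the first and the next overlap, and HERC6 and OAS1 have none in these stretches. Near its end the OAS1 stretch does hold copies of GAAA with fewer bases between them than the search required. A stretch without a match can thus still hold an element.

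In windows from 250 bases before to 50 after a start, 36 of the 46 genes had a sequence, and 19 of these held an ISRE match in at least 1 window. Among induced genes it was 18 of 24 and among sensors, receptors and factors 1 of 12, namely IFIH1. A match was in 3.57% of all 35116 windows of that length. This share, like that of the second element below, is per window, whereas the members are counted per gene over all its windows. The induced genes with a match that passed the count minimum had a median ratio of 0.05 (8 of 17 below 0), and the 5 without one a median of 0.33 (2 below 0). Those 5 include OAS1, whose stretch holds GAAA copies set closer than the search required. These groups may therefore not part genes with the element from genes without it. Over all genes with a window that passed the count minimum, the 445 with a match had a median ratio of 0.02, and 4.04% of them were at least 2-fold lower. The 10735 without had a median of -0.02, and 4.14% were 2-fold lower. A second element, the gamma-activated site with the letters TTCNNNGAA, which read the same on both strands and were searched apart from the ISRE, so that matches may overlap, was in 9 of the 36 genes and in 7.66% of all windows. CGAS, STING1, IFNAR2, IRF3, IRF7, IFIT2, OAS2, OASL, MX2 and USP18 had no window.

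The oligoadenylate synthetases, which make the activator of the RNA-degrading enzyme RNase L on binding double-stranded RNA, held both ends of the whole list. OAS1 had 1432 and 1928 counts, or 60.4 and 95.7 CPM, and was 1.59-fold higher in the PKP2 library, a ratio of 0.67 (0.57 to 0.77). This was the highest ratio of the 43 genes, and 0.72 after the GC correction. OAS3, the form with 3 synthetase units, had 2896 and 2835 counts, a ratio of 0.21 (0.13 to 0.28; 0.33 with the GC correction), and OAS2 had only 22 and 27. OASL, a catalytically inactive relative that enhances RIG-I signalling, had 48 and 14 counts, that is 2.02 and 0.70 CPM. Its ratio of -1.54 was the lowest of the list, with an interval from -2.51 to -0.66 that reaches well inside 2-fold. OASL was below OAS1 by 2.21 (interval -3.19 to -1.32), below OAS3 by 1.75 (-2.72 to -0.86) and below OAS2 by 2.07 (-3.38 to -0.79). OAS1 and its neighbour OAS3 also differed, by 0.46 (-0.58 to -0.33 for OAS3 against OAS1).

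ISG15, a ubiquitin-like protein that is joined to other proteins during the interferon response, had few counts in both libraries and was lower in the PKP2 library. It had 90 and 37 counts, or 3.79 and 1.84 CPM, a ratio of -1.05 (-1.64 to -0.48), -0.54 after the GC correction and -0.85 after a like correction for transcript length. Its transcript has 64.7% GC, the highest of the list after IRF7, and is the shortest, at 711 bases. HERC5, the ligase that attaches ISG15 to newly made proteins, had 185 and 139 counts, a ratio of -0.18 with an interval that takes in 0. USP18, which removes ISG15 and also restrains the type I receptor, had 345 and 359 counts, a ratio of 0.29 (0.08 to 0.51), and HERC6, a relative of HERC5, had 259 and 301, a ratio of 0.45 (0.21 to 0.70). For USP18, 29.5% of 31-base stretches recur in other genes, so its count is less certain. ISG15 lay below each of these genes by more than counting error, by 0.87 for HERC5 (0.21 to 1.55) and by 1.34 for USP18 (0.73 to 1.97), and for HERC6 the interval ran from 0.87 to 2.14. HERC5 and HERC6, neighbours on chromosome 4, differed by 0.63 (interval -1.04 to -0.22 for HERC5 against HERC6).

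**Figure D4:**
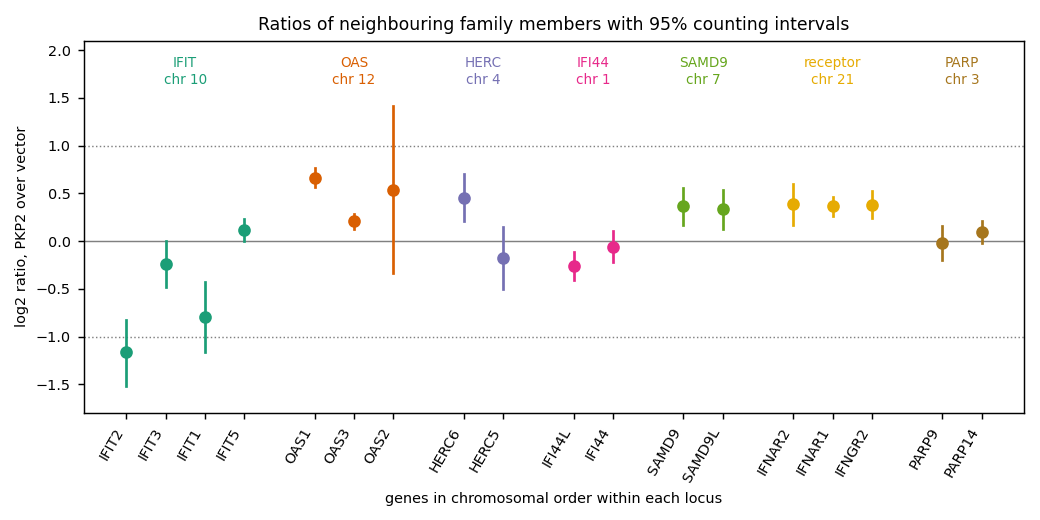
Log2 ratios (y axis) with 95% counting intervals of members that are neighbours, in chromosomal order within 7 loci (x axis). The IFIT and HERC genes are spread within their locus, whereas SAMD9 and SAMD9L (0.36 and 0.33) and the 3 receptor genes on chromosome 21 (0.36 to 0.39) lie at 1 level before the GC correction.

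Neighbouring members were compared in 16 pairs over 7 loci, and 7 pairs differed by more than counting error. No such share was worked out for other neighbouring genes, so the count describes these pairs only. These were 5 IFIT pairs, OAS1 with OAS3 and HERC5 with HERC6. In the other 9 pairs the interval of the difference took in 0, and few counts widen it, as for the pairs with OAS2 (22 and 27 counts). SAMD9 and SAMD9L, adjacent genes on chromosome 7 that restrict poxviruses, had 424 and 463 counts and 387 and 414 counts, ratios of 0.36 (0.17 to 0.56) and 0.33 (0.13 to 0.54). Their difference was -0.03, with an interval from -0.31 to 0.25. With the GC correction SAMD9 was at 0.08 and SAMD9L at 0.10, below their counting intervals. The receptor genes IFNAR2, IFNAR1 and IFNGR2 on chromosome 21 differed from each other by at most 0.02, with intervals that reached no farther than 0.26 from 0. With the GC correction they lay farther apart, at 0.36, 0.22 and 0.53. IL10RB, which lies between them and encodes a chain of the interferon lambda and interleukin 10 receptors, went the other way, with 646 and 294 counts and a ratio of -0.90 (-1.10 to -0.70). The gene that overlaps IFNAR2 also overlaps IL10RB, of whose stretches 37.3% recur in other genes.

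The IFI genes are named for their induction by interferon and are not 1 family. IFI6, a mitochondrial protein that inhibits apoptosis, had 331 and 290 counts, a ratio of 0.05 (-0.19 to 0.28). IFI27 had only 27 and 24 counts. IFI35, a partner of the transcription regulator NMI, had 337 and 209 counts, a ratio of -0.45 (-0.71 to -0.20). IFI44L had 924 and 655 counts, a ratio of -0.26 (-0.41 to -0.11), and its neighbour IFI44 had 711 and 580, a ratio of -0.06 (-0.22 to 0.10). With the GC correction IFI44L was at -0.51, IFI44 at -0.27 and IFI35 at -0.20, so the order of IFI44L and IFI35 turned.

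Of the other induced genes, CMPK2, SAMD9, SAMD9L, DDX60 and LGALS3BP had intervals without 0, and ISG20, PARP9 and PARP14 did not. CMPK2, a mitochondrial nucleotide kinase, had 59 and 30 counts, or 2.49 and 1.49 CPM, a ratio of -0.74 (-1.42 to -0.08). LGALS3BP had 517 and 369 CPM, a ratio of -0.49 (-0.53 to -0.44), and -0.16 after the GC correction. Its transcript has 60.5% GC. DDX60, a helicase linked to RIG-I signalling, had 171 and 186 counts, a ratio of 0.36 (0.05 to 0.67), and 0.14 with the GC correction. ISG20, an RNA exonuclease, had 908 and 834 counts, a ratio of 0.11 (-0.02 to 0.25). The ADP-ribosyltransferase genes PARP9 (588 and 492 counts, ratio -0.02) and PARP14 (1340 and 1215 counts, ratio 0.10) lay near 0. MX1, a dynamin-like GTPase that blocks viral replication, had 70 and 66 counts, a ratio of 0.15 (-0.36 to 0.66). MX2 had 1 and 3 counts and BST2, the tetherin that holds budding virus at the membrane, 6 and 5, for which no change can be read.

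The lowest 6 ratios of the list, in order, were those of OASL, IFIT2, ISG15, STING1, IFIT1 and CMPK2. Each had under 300 counts in either library. All but STING1 are induced genes. With the GC correction IFIT2 and OASL were still at least 2-fold lower and ISG15 was not. The highest ratios beyond counting error were those of OAS1, DDX58, IFIH1, HERC6, IFNAR2 and IFNGR2, of which OAS1 and IFNGR2 were higher still with the GC correction.

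Levels between genes were compared as CPM per kilobase of transcript. LGALS3BP was by far the most abundant, at 215 with the vector and 154 with PKP2, followed by OAS1 at 35.8 and 56.9. TBK1 (30.6 and 33.9) and JAK1 (29.4 and 36.1) came next, then ISG20 at 20.6 and 22.3 and OAS3 at 18.2 and 21.0. These abundant genes thus include induced ones and the kinases of both pathways. ISG15, at 5.34 and 2.58, ranked 23rd in the vector library. The sensor genes were close to each other, with DDX58 at 2.90 and 4.13, IFIH1 at 2.56 and 3.54 and CGAS at 3.09 and 3.53. At the low end were OASL at 0.62 and 0.21, IRF7 at 0.41 and 0.51, OAS2 at 0.26 and 0.37, BST2 at 0.25 and 0.24 and MX2 at 0.01 and 0.05.

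**Figure D5:**
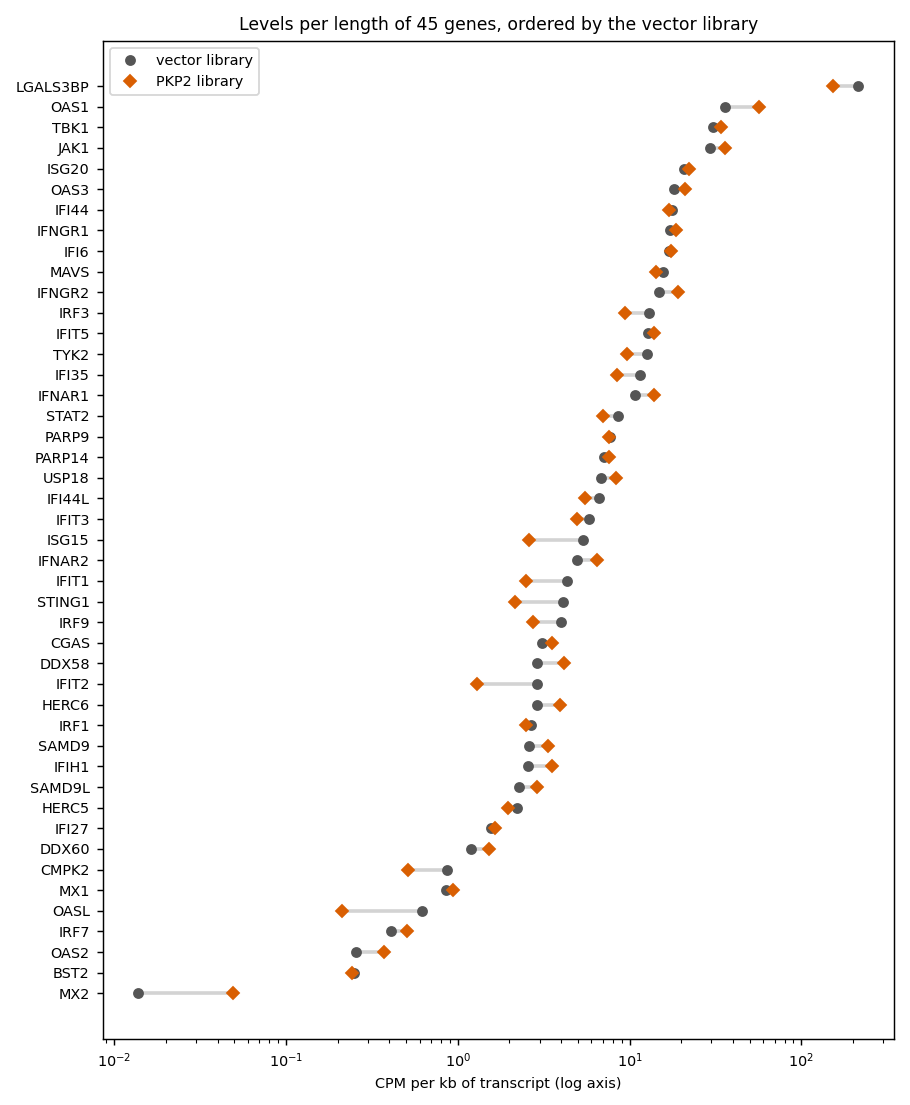
Levels of the 45 genes with a row in the vector library (grey circles) and the PKP2 library (orange diamonds), in CPM per kilobase of transcript (x axis, log scale), ordered by the vector library. LGALS3BP stands above the rest at 215 and 154, and the longest lines between symbols, MX2 apart, are those of OASL, IFIT2 and ISG15.

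Other genes of the pathway, in 4 lists, numbered 117, of which 92 had a row and 85 passed the count minimum. Of these 85, 4 were at least 2-fold lower in the PKP2 library, none was higher and 81 lay within 2-fold, with a median ratio of -0.02. Over all genes 4.61% were 2-fold lower and 2.47% higher, so the 4 genes lay near that share. Among 41 other interferon-stimulated genes 2 were 2-fold lower. GBP2, a guanylate-binding GTPase, had 49 and 20 counts, a ratio of -1.06 (-1.88 to -0.28) that was -0.99 with the length correction. PARP10, an ADP-ribosyltransferase, had 278 and 110, a ratio of -1.10 (-1.43 to -0.78) that was -0.50 with the GC correction. The next farthest from 0 were HELZ2 (771 and 384 counts, ratio -0.77; -0.16 with the GC correction) and IFITM2 (464 and 233 counts, ratio -0.76). The median of these 41 genes was -0.01.

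Regulators of nucleic acid sensing had a median of -0.03 over 28 genes, with 2 at least 2-fold lower. TRIM56, a ubiquitin ligase that acts on cGAS and STING signalling, had 3110 and 260 counts, or 131 and 12.9 CPM, a ratio of -3.34. RNF125, a ubiquitin ligase that marks RIG-I for degradation, had 180 and 55 counts, a ratio of -1.47 (-1.94 to -1.03), and -1.64 with the GC correction. RNF5, a ligase that targets STING and MAVS, had 686 and 408 counts, a ratio of -0.51. The 15 other receptor, kinase, factor and feedback genes were all within 2-fold, with a median of -0.04. Farthest from 0 among them were IRF2BP1 (757 and 343 counts, ratio -0.91; -0.24 with the GC correction), IL10RB and the phosphatase gene PTPN6 (159 and 75 counts, ratio -0.85).

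Of the interferon genes themselves, 1 of 21 had a row. This was IFNE, the epithelial interferon epsilon, with 31 and 24 counts, a ratio of -0.13 (-0.97 to 0.68). The genes of interferon beta, gamma, kappa, omega and lambda and of the alpha subtypes in the list had no row, and since the files list no gene at 0 in both libraries, their level is not analysed here.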

How the data were processed

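RNA-seq libraries of H460 cells were prepared with a TruSeq RNA kit (Illumina) from total RNA, per the labels' protocols. Bowtie 0.12.2 is named in the submitters' processing notes, with builds GRCh37 and hg19. Which program counted the reads, with what annotation and whether by strand, is not given in the sources used here. Each deposited file pairs Ensembl gene IDs with counts, per the file headers, which do not say whether the authors normalized them. The deposited values are called estimated counts here because 1 damaged row holds a decimal, although all gene rows used were whole numbers. In each file 2 rows without a readable gene count were left out (that row and a gene row with no value).

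Libraries were scaled by edgeR's TMM factors (1.01 and 0.991; edgeR 4.0.16, R 4.3.3), with no pseudocount. No quasi-likelihood test can be run on 1 library a group, and genes were described by a 2-fold threshold and exact binomial (Clopper-Pearson) 95% intervals. Differences between 2 genes' ratios have exact conditional odds-ratio intervals (SciPy 1.17.1). The floor is 3 counts (0.126 and 0.149 CPM); where neither library was above it no ratio was given. GC content and length came from the principal or longest GENCODE 29 transcript, and the GC and length trends were each a lowess fit by statsmodels 0.14.6 (fraction 0.3) to genes averaging at least 100 counts. Sharing was how many percent of the 31-base stretches of a gene recur in another listed gene. All 46 genes are described; of the other pathway lists those at least 2-fold changed and the 3 farthest from 0 with a mean of at least 100 counts are named. The members, their roles and the lists were chosen with earlier results of these data known. The ratios, their counting intervals and the 2-fold call were tested on simulated counts with the library sizes given. The scaling, the GC and length corrections, the differences between genes and the promoter search were not.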

Additional observations from a re-analysis of the deposited data

How the results depend on the processing

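Of the 43 genes in the list, 3 were at least 2-fold lower. The count was 1 with 1 CPM added to both libraries (IFIT2) and 0 with 5 CPM added, 1 with a mean of at least 100 counts required, 6 at a 1.5-fold threshold, and 0 at a 3-fold threshold or with the whole counting interval beyond 2-fold. At 1.5-fold 1 gene (OAS1) was higher. The median ratio was -0.018 with the GC correction, and the mean of the ratios was -0.066. Library totals, DESeq2 size factors (DESeq2 1.42.0) and upper-quartile factors left the count at 3 and every ratio within its counting interval. The length correction left 2 (ISG15 was lost, at -0.85), and the GC correction also left 2. Leaving out genes that overlap or share sequence, chosen after seeing the data, left 2, OASL and ISG15. IFIT2, which overlaps a gene on the same strand, was lost. Of the 43 ratios, 15 left their counting interval under the GC correction and 4 changed sign, none of them a 2-fold call. For the other pathway genes the 4 lower became 3 with the length correction (GBP2 was lost, at -0.99). The GC correction also left 3 (PARP10 was lost, at -0.50), as did requiring a mean of at least 100 counts. The count was 2 with 1 CPM added, 1 with 5 CPM added and 8 without a count filter (median -0.076). It was 9 at 1.5-fold (with 1 higher), 1 at 3-fold and 2 by the whole interval. The 1 interferon gene gave no median with a mean of at least 100 counts required. The summed induced genes went from -0.13 to 0.14 without LGALS3BP, also chosen after seeing the data. No paired analysis was possible because each group has 1 library.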
